A study of Mus musculus with 11 samples.

Results

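The genes described here encode the proteins of the mitochondrial ribosome. They were chosen as protein-coding genes of mouse whose GRCm38 symbol starts with Mrpl or Mrps followed by a digit, which gave 78 genes of the 54838 gene identifiers in the files, 49 with Mrpl and 29 with Mrps symbols. RNA-seq of total RNA, depleted of ribosomal RNA, had been carried out on E14 mouse embryonic stem cells (ESCs) after 36 h of siRNA transfection. There were 3 libraries of a control (scramble) siRNA, 4 of CMTR1 siRNA 1 and 4 of CMTR1 siRNA 2, and the cells of every group were E14 ESCs kept in medium with LIF, with no other agent or allele named in the labels. CMTR1 is the methyltransferase that adds the 2'-O-methyl group to the first transcribed nucleotide of capped RNA, and the question was how the level of each mRNA stood after CMTR1 siRNA. Both siRNAs target the same gene by transient transfection, and E14 is 1 cell line.

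The mitochondrial ribosome translates the few messenger RNAs that the mitochondrial genome encodes, all of them for subunits of the respiratory chain and ATP synthase. Its RNA components are transcribed inside the organelle, whereas its proteins are encoded in the nucleus, transcribed by RNA polymerase II as capped mRNAs, translated on cytosolic ribosomes and imported. Part of the proteins have counterparts in the bacterial ribosome, and the rest were gained in the mitochondrial lineage. Of the 78 genes, 30 encode large subunit proteins with a bacterial counterpart and 21 large subunit proteins without one (Mrps30 and Mrps18a, which despite their symbols sit in the large subunit, are among these). Another 16 encode small subunit proteins with a bacterial counterpart and 10 small subunit proteins without one. Mrps36 was kept apart, since its product is now known as a component of the 2-oxoglutarate dehydrogenase complex.

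The genes lay on 17 autosomes and none was on the X chromosome. Their total exon length in the annotation had a median of 2394 bases and ran from 607 to 8631. For 18 of the 78, the start of another protein-coding gene lay within 1 kb upstream on the opposite strand, pointing away (for example Ncapd2 at 100 bases from Mrpl51, and Klc4 at 207 bases from Mrpl2). Pairs on opposite strands whose 5' ends overlap, as Mrps11 with Mrpl46 and Mrps7 with Gga3, were not counted. RefSeq promoter windows of GRCm38.p6, from 250 bases before to 50 bases after the annotated start, were at hand for 69 of the 78 genes, in 75 windows. The ETS family motif CCGGAAG, which GABP recognises, was in 34.7% of these windows on either strand, against 8.86% of all 32851 windows. The motif GCGCATGC, bound by NRF1, a regulator of nuclear genes for mitochondrial proteins, was in 10.7% against 2.71%, and AAGATGGC, bound by YY1, in 16.0% against 2.75%. GGGCGG was in 52.0% against 35.7%, CCAAT in 40.0% against 37.4% and TATAAA in 6.67% against 13.6%. Matches of different motifs overlapped in 2 of the 75 windows. The windows also differed from the rest in base composition, with a median of 58.7% G and C against 52.7% and a median of 21 CpG dinucleotides against 7, and the part of base composition in the motif shares was not tested. Since CMTR1 acts on the first transcribed nucleotide, the first base of each RefSeq transcript was read as well. It was G in 56.0% of the windows, A in 17.3%, C in 14.7% and T in 12%, against 35.6%, 34.4%, 16.3% and 13.7% of all windows and 39.0%, 18.2%, 29.9% and 13.0% of those of cytosolic ribosomal protein genes. A start of 5 bases that were all C or T, as in the 5'-terminal oligopyrimidine mRNAs of the cytosolic ribosome, was found in 1.33% of the windows of mitochondrial ribosomal protein genes, 22.1% of the 77 windows of cytosolic ribosomal protein genes and 4.44% of all windows. These are annotated starts, and the starts used in these cells were not measured. Since only 22.1% of the cytosolic windows had such a start, the annotated first base need not be the first transcribed one.

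The sequences from 120 bases before to 10 bases after the start follow for the 5 genes that passed the test in a comparison given further on, and for Mrpl22, which encodes a protein that lines the exit tunnel and whose window held both an ETS family and an NRF1 match. Each is written 5' to 3' on the strand of the gene, here always the plus strand of GRCm38.p6, with matches of the ETS family and NRF1 motifs in capitals. No YY1 match fell in these 6 stretches, and the start used for Mrps7 lay 215 bases, and that for Mrpl51 399 bases, from the start of the gene in the annotation used for counting.
Mrps17 (chr5:129715377-129715506): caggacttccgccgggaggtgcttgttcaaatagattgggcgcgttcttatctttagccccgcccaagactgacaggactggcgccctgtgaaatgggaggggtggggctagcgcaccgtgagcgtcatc
Mrps7 (chr11:115604020-115604149): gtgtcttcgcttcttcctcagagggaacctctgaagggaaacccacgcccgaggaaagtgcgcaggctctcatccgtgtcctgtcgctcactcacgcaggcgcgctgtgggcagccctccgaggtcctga
Mrpl2 (chr17:46646109-46646238): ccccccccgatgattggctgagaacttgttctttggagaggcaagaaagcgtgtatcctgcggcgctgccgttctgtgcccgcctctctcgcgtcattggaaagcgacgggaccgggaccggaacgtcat
Mrpl51 (chr6:125192080-125192209): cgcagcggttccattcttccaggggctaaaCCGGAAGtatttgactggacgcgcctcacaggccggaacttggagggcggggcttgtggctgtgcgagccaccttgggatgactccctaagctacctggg
Mrps2 (chr2:28467946-28468075): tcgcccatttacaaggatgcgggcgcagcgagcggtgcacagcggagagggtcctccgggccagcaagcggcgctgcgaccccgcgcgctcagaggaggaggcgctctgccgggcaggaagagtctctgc
Mrpl22 (chr11:58171544-58171673): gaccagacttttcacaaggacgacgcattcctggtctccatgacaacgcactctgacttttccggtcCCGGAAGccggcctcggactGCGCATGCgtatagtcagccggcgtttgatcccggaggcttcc
None of the motif letters of the 3 factors occurred in the stretches of Mrps17, Mrps7, Mrpl2 and Mrps2, which says only that these letters were not there. The first base at the annotated start was G in all 6.

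The libraries held 6738478 to 8382318 reads in genes. The 78 genes took 21245 to 28377 of them per library, 0.311% to 0.339% of the gene reads. Genes with more than 1 CPM (the count scaled to the total of gene reads in the library) in at least 4 libraries were tested, 16073 in all, with edgeR's quasi-likelihood test on the 3 groups scaled by total gene reads. Adjusted p-values are Benjamini-Hochberg values over all 16073 genes, a gene was called at 0.05 or under, and a log2 fold change is given with its standard error (SE). Of the 78 genes 77 were tested. The exception was Mrpl53, with 0 reads in all 11 libraries. In the annotation 88.0% of its exon bases lie in the exons of Gm42688 on the same strand, so that reads there could not be assigned to 1 gene, and a count of 0, which allows a level of up to 0.358 to 0.445 CPM per library, does not describe its transcription. In bulk RNA, fewer cells of a kind and less RNA per cell cannot be told apart, for any value given here.

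Cmtr1 mRNA itself, the target of the siRNAs, stood at 21.3, 21.7 and 17.9 CPM in the control libraries. It was 21.1, 21.3, 16.2 and 18 CPM in the libraries labelled siRNA 1 and 15.6, 16.8, 16.4 and 19.5 CPM in those labelled siRNA 2. The fitted log2 fold changes were -0.088 ± 0.11 (SE; edgeR adjusted p = 0.743) and -0.25 ± 0.11 (adjusted p = 0.144). Neither passed the test, although SEs of this size would have shown a large fall of the mRNA. The mRNA therefore did not check the labels, and protein was not measured in these files. All 8 markers of ESCs were detected in every group, with a summed level of 1920 to 2020 CPM in the control libraries, 1640 to 1810 for siRNA 1 and 1730 to 1810 for siRNA 2. With siRNA 1, 5 of the 8 were called lower (62.5%, against 1.97% of all genes), and with siRNA 2, 3 of the 8 (37.5%, against 3.55%). The summed levels of 5 primitive endoderm, 4 trophoblast, 4 neural and 5 fibroblast markers were between 24.5 and 84.6 CPM in every library, and the fibroblast sum was 24.5 to 29.6 CPM in the control libraries, 26.9 to 29.3 for siRNA 1 and 33.8 to 39.3 for siRNA 2. Within the fibroblast list Col1a1 was called higher with siRNA 2 (8.65 to 14.5 CPM, adjusted p = 6.4e-05) and Col3a1 lower (1.58 to 0.596 CPM, adjusted p = 0.0180). Of the 4 neural markers, Map2 alone was called with siRNA 2, as higher (11.6 to 14.9 CPM, edgeR adjusted p = 0.0455). Elf5, a trophoblast marker, was at or under 0.135 CPM in the control libraries, at 0 in one of them, and at 0 in both CMTR1 siRNA groups. The part of these shifts in the values below was not tested.

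In control ESCs the mRNAs of the mitochondrial ribosome differed by 27.6-fold in level per kb of annotated exon. Per kb of exon, the mean control level had a median of 14.7 CPM over the 77 genes (quartiles 8.64 and 23.4), against 4.74 CPM over all genes tested, and 72 of the 77 were above that value. The highest was Mrpl12, which encodes the stalk protein that recruits translation factors, at 65.7 ± 2.86 CPM per kb (SD, n = 3). Mrpl18, a protein of the central protuberance, followed at 54.7 ± 4.23 and Mrpl34 at 51.3 ± 3.71. The difference between these neighbours was within their SDs. Mrpl2, a large subunit protein close to the peptidyl transferase centre, was at 48.4 ± 0.278 and Mrpl28 at 44.8 ± 0.305. At the other end stood Mrpl23, a protein at the mouth of the exit tunnel, at 2.38 ± 0.266 CPM per kb, Mrpl48 at 2.58 ± 0.101 and Mrpl57 at 3.39 ± 0.238. Mrpl23 and Mrpl48 did not differ beyond their spread. Their exon lengths, 4883 and 8152 bases as the union of all annotated isoforms, lower the value per kb wherever the long isoforms are not used. The range, the ranking and the medians per kb all depend on such lengths. Mrpl15, with 8487 bases, was at 14.7 CPM per kb, but at 124.5 CPM without division by length, against 100.6 CPM for Mrpl12. Of the 75-base words of Mrpl23, 10.1% also occur in other genes, so that part of its reads could have been set aside.

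**Figure D1:**
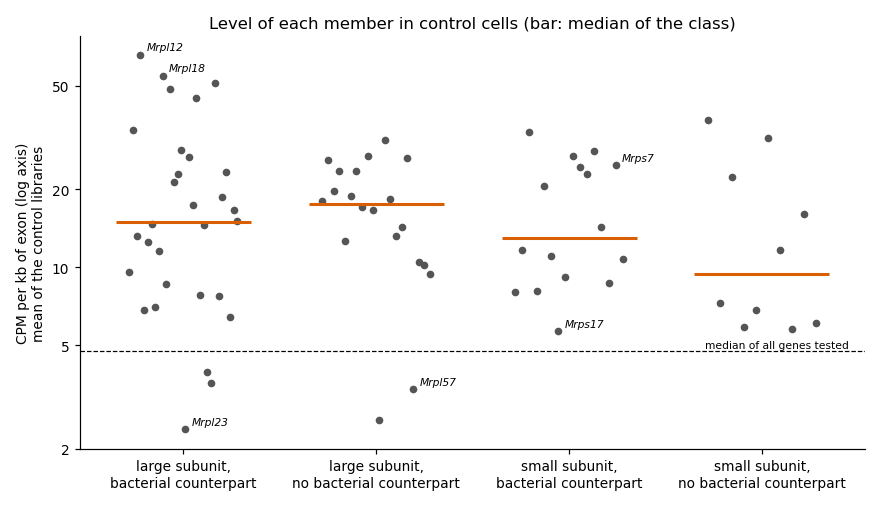
Level of 76 of the 77 tested mitochondrial ribosomal protein genes in control cells, as the mean CPM per kb of exon of the 3 control libraries on a log axis, by subunit and by presence of a bacterial counterpart (Mrps36 is not drawn). Each point is a gene and each bar the median of its class, from 9.45 for the small subunit proteins without a counterpart to 17.5 for the large subunit proteins without one, and the dashed line is the median of all genes tested, 4.74.

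The large subunit mRNAs had a median of 16.6 CPM per kb (n = 50) and the small subunit mRNAs of 11.6 (n = 26). Within the large subunit, the 30 genes with a bacterial counterpart ran over the whole 27.6-fold range, with a median of 14.9, and the 20 without one from 2.58 to 31.0, with a median of 17.5. In the small subunit the medians were 12.9 for the 16 genes with a counterpart and 9.45 for the 10 without. Reads of large subunit genes outnumbered those of small subunit genes 2.09 ± 0.031 to 1 in control libraries (SD, n = 3), 2.04 ± 0.035 to 1 for siRNA 1 (n = 4) and 2.07 ± 0.013 to 1 for siRNA 2 (n = 4), and the ranges of all 3 groups overlapped. Single genes varied little between libraries of a group. The coefficient of variation of the CPM had a median over the genes of 5.32% in control libraries, 4.92% in those of siRNA 1 and 7.09% in those of siRNA 2, at a median of 292, 284 and 283 reads per gene and library.

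The question for each siRNA was whether the mitochondrial ribosomal protein mRNAs changed. With siRNA 1, 1 of the 77 genes passed the test (1.30%), Mrps17, which was higher. Over all 16073 genes 4.67% were called with siRNA 1, 2.71% higher and 1.97% lower. The 77 log2 fold changes ran from -0.26 (Mrps16) to 0.33 (Mrps17) with a median of -0.0115, against 0.0244 over all genes, and 44 were below 0 (57.1%, against 43.2% of all genes). The 95% interval of the fold change lay within 0.32 of 0 on the log2 scale for 67 of the 77. Before adjustment 4 genes had a p under 0.05: Mrps17, which was higher, and Mrps16, Mrpl45 and Mrpl51, which were lower. Of all 16073 genes, 2698 had such a p, 1630 of them higher and 1068 lower. In 5 genes (6.49%) the siRNA 1 libraries did not overlap with the control libraries, against 15.5% of all genes. These were Mrps17, Mrps11 and Mrpl16 above the control and Mrpl45 and Mrpl58 below it.

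With siRNA 2, 3 of the 77 genes passed the test (3.90%), Mrps17 and Mrps7 as higher and Mrpl2 as lower. Over all genes 9.72% were called, 6.17% higher and 3.55% lower. The log2 fold changes ran from -0.30 (Mrps36) to 0.41 (Mrps17), with a median of 0.0149 against 0.0289 over all genes, and 34 of 77 were below 0 (44.2%, against 42.9%). The sign of this median depended on the scaling, since with TMM factors it was -0.0100 and 41 genes were below 0. The interval lay within 0.32 of 0 for 54 of the 77. Before adjustment 12 genes had a p under 0.05, 8 of them higher and 4 lower. Of all 16073 genes, 3733 had such a p, 2328 of them higher and 1405 lower. In 10 genes (13.0%) the libraries did not overlap with control, against 19.4% of all genes, with Mrps17, Mrps7, Mrpl3, Mrpl37 and Mrpl47 above the control and Mrpl2, Mrps12, Mrps18b, Mrps28 and Mrps6 below it. Mrps17 alone was apart from control with both siRNAs, and the comparisons share the 3 control libraries. The names in these counts that were not called were chosen after their values were seen.

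**Figure D2:**
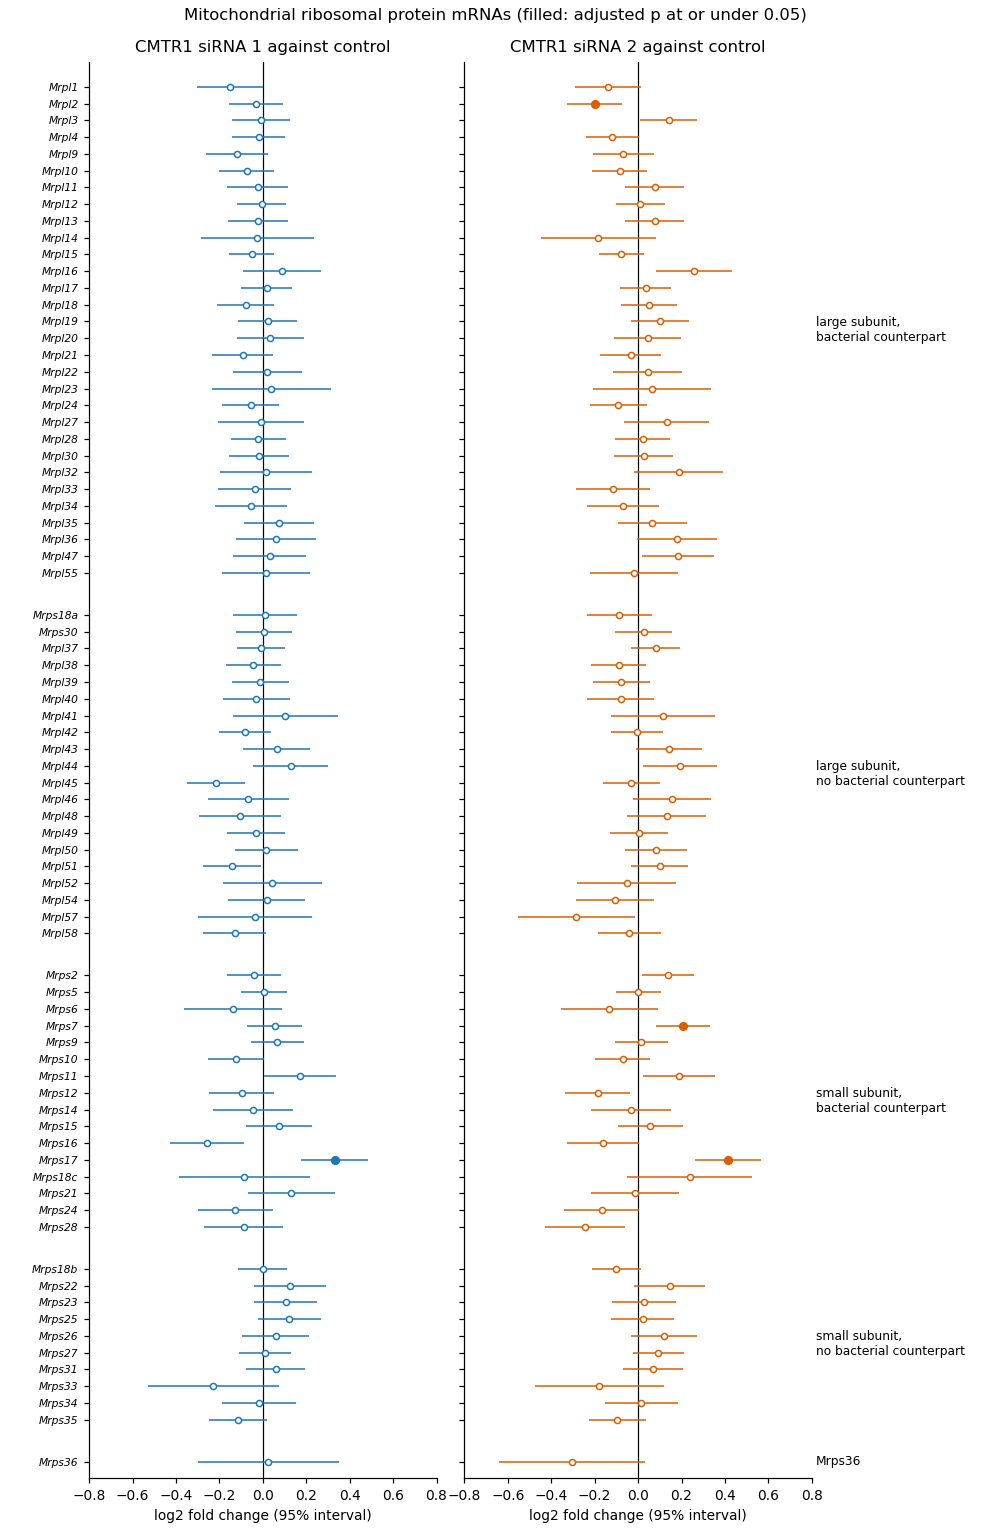
Log2 fold change of each of the 77 tested mitochondrial ribosomal protein genes with CMTR1 siRNA 1 (left) and siRNA 2 (right) against control, with its 95% interval, in the order of subunit and class. Filled points passed the test at an adjusted p of 0.05: Mrps17 with siRNA 1, and Mrps17, Mrps7 and Mrpl2 with siRNA 2. The points range from -0.26 to 0.33 on the left and from -0.30 to 0.41 on the right.

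Mrps17 encodes the small subunit counterpart of bacterial S17, a protein that binds ribosomal RNA (ENSMUSG00000034211, GRCm38 chr5:129715497-129722556, plus strand, 2 exon blocks). It was measured at 39.5, 36.0 and 34.6 CPM in the control libraries, at 41.0, 50.5, 48.7 and 44.1 CPM with siRNA 1, and at 49.2, 49.6, 43.8 and 52.7 CPM with siRNA 2. All 8 CMTR1 siRNA libraries were above all 3 control libraries, the nearest pair being control replicate 1 and siRNA 1 replicate 1. The mean rose from 36.7 ± 2.52 CPM (SD, n = 3) to 46.1 ± 4.34 (n = 4) with siRNA 1, a log2 fold change of 0.33 ± 0.078 (SE; edgeR adjusted p = 0.00655). With siRNA 2 it rose to 48.8 ± 3.70 CPM (n = 4), a log2 fold change of 0.41 ± 0.077 (edgeR adjusted p = 0.000281). The siRNAs differed by 0.082 on the log2 scale, with a 95% interval of -0.054 to 0.22. The call with siRNA 1 was lost without control replicate 2 (adjusted p = 0.0512), control replicate 3 (0.0619) or siRNA 1 replicate 2 (0.0541), and that with siRNA 2 was kept in every alternative run. Its neighbour downstream on the same strand, Nipsnap2, had log2 fold changes of -0.14 (adjusted p = 0.431) and -0.21 (adjusted p = 0.140).

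Mrps7 encodes the counterpart of bacterial S7 in the head of the small subunit (ENSMUSG00000046756, GRCm38 chr11:115603925-115608036, plus strand). Its libraries stood at 51.7, 51.6 and 50.3 CPM in control, at 53.1, 54.3, 54.0 and 51.2 CPM with siRNA 1, and at 60.4, 63.5, 56.5 and 55.8 CPM with siRNA 2. The siRNA 2 libraries were above all the others, while those of siRNA 1 overlapped with control. The mean of 51.2 ± 0.741 CPM in control (SD, n = 3) and 59.0 ± 3.57 with siRNA 2 (n = 4) gave a log2 fold change of 0.21 ± 0.064 (SE; edgeR adjusted p = 0.0324). With siRNA 1 it was 0.055 ± 0.065 (adjusted p = 0.739), and the difference between the siRNAs, 0.15 ± 0.059, did not pass the test (adjusted p = 0.114). The call with siRNA 2 was lost with DESeq2 (adjusted p = 0.147), with TMM factors (0.0662), with no filter (0.0622) and without control replicate 1, 2 or 3 or siRNA 2 replicate 1 or 2 (0.0681 to 0.122). Mif4gd, on the opposite strand, overlaps the end of Mrps7 and was called lower with siRNA 2 (-0.28, adjusted p = 0.0231), and 11.9% of the exon bases of Mrps7 lie in exons on that strand.

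Mrpl2 encodes the counterpart of bacterial L2 (ENSMUSG00000002767, GRCm38 chr17:46646229-46650139, plus strand, 7 exon blocks). It was at 56.9, 56.7 and 56.3 CPM in control, 58.8, 57.5, 53.1 and 52.3 CPM with siRNA 1, and 48.9, 51.2, 50.2 and 46.9 CPM with siRNA 2. Every siRNA 2 library was below every other library, and the siRNA 1 libraries lay on both sides of control. The mean fell from 56.6 ± 0.325 CPM (SD, n = 3) to 49.3 ± 1.83 (n = 4) with siRNA 2, a log2 fold change of -0.20 ± 0.065 (SE; edgeR adjusted p = 0.0395), against -0.033 ± 0.064 with siRNA 1 (adjusted p = 0.859). The siRNAs differed by -0.17 ± 0.060, which did not pass the test (adjusted p = 0.0810). Klc4, the gene that starts on the opposite strand near Mrpl2, had a log2 fold change of -0.11 with siRNA 2 (adjusted p = 0.616). Without control replicate 1, 2 or 3, or siRNA 2 replicate 1 or 4, the adjusted p of Mrpl2 was 0.0835 to 0.115, and with no filter it was 0.0777.

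**Figure D3:**
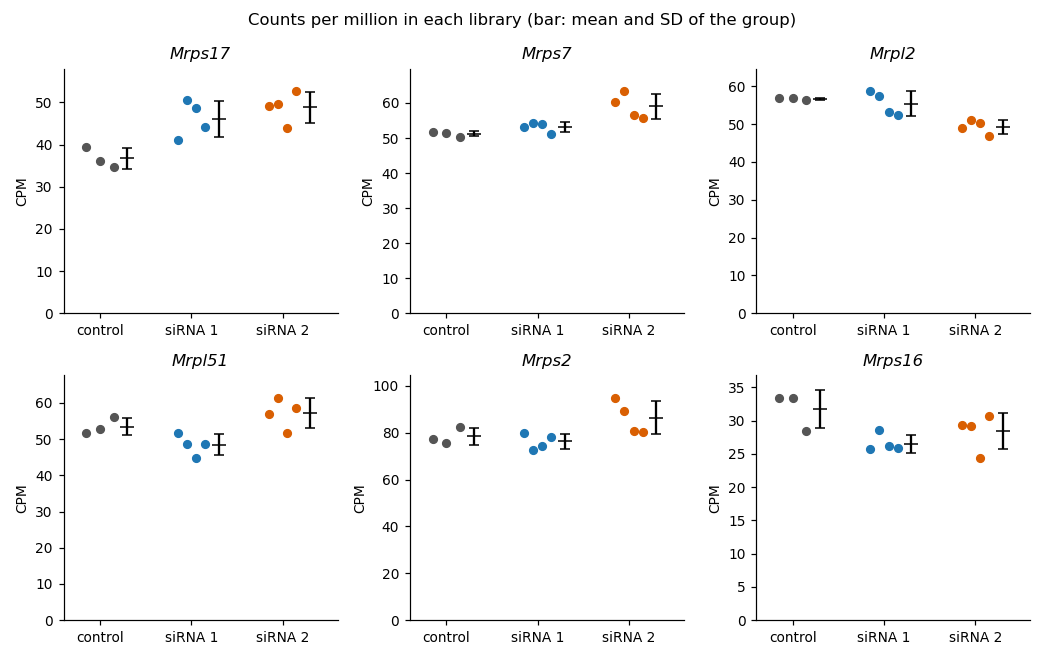
CPM of Mrps17, Mrps7, Mrpl2, Mrpl51, Mrps2 and Mrps16 in each of the 3 control, 4 siRNA 1 and 4 siRNA 2 libraries (points), with the mean and SD of each group beside them and the axis from 0. For Mrps17 the 8 CMTR1 siRNA libraries are above the 3 control libraries, and for Mrpl2 the 4 siRNA 2 libraries are below all the others.

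At the ends of the range, Mrps16, a small subunit protein needed for the assembly of that subunit, had the lowest fold change with siRNA 1. It stood at 33.4, 33.4 and 28.4 CPM in control and at 25.7, 28.5, 26.2 and 25.8 CPM with siRNA 1. Control replicate 3 lay just under siRNA 1 replicate 2, so the groups overlapped. The log2 fold change was -0.26 ± 0.086 (SE; edgeR adjusted p = 0.0764), and with siRNA 2, at 29.3, 29.2, 24.4 and 30.6 CPM, it was -0.16 ± 0.085 (adjusted p = 0.246). Without control replicate 3 the adjusted p with siRNA 1 was 0.0426. Mrps36, the lowest with siRNA 2, was at 6.98, 7.03 and 7.67 CPM in control and at 4.40, 7.28, 6.74 and 4.82 CPM with siRNA 2. These libraries rest on 31 to 61 reads each and overlapped with control, and the log2 fold change was -0.30 ± 0.17 (SE; edgeR adjusted p = 0.290). Of the 75-base words of Mrps36, 11.3% also occur in other genes, Mrps36-ps2 among them.

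Mrpl45, whose product links the exit tunnel to the inner membrane, had a mean of 69.7 ± 2.74 CPM in control (SD, n = 3), 60.04 ± 5.62 with siRNA 1 (n = 4) and 68.2 ± 4.89 with siRNA 2 (n = 4). Its log2 fold change with siRNA 1 was -0.21 ± 0.068 (SE; edgeR adjusted p = 0.0551), and with siRNA 2 it was -0.031 ± 0.066 (adjusted p = 0.836). Mrpl16, at the base of the central protuberance, was at 22.3 ± 0.681 CPM in control cells, 23.7 ± 0.330 for siRNA 1 and 26.6 ± 2.67 with siRNA 2, with log2 fold changes of 0.089 ± 0.091 (adjusted p = 0.691) and 0.26 ± 0.089 (adjusted p = 0.0576). Neither passed the test with either siRNA. Both were chosen after their values were seen.

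Of the 5 mRNAs with the highest control levels per kb, Mrpl2 was called lower with siRNA 2, as given above, and the other 4 were not called with either siRNA. Mrpl12 stood at 97.3, 106 and 99.1 CPM in control, at 104, 99.2, 104 and 94.1 CPM with siRNA 1, and at 109, 103, 95.04 and 98.4 CPM with siRNA 2. The groups overlapped throughout, with log2 fold changes of -0.0056 (95% interval -0.12 to 0.11) and 0.011 (-0.10 to 0.12). Mrpl18 had log2 fold changes of -0.079 ± 0.067 with siRNA 1 and 0.051 ± 0.066 with siRNA 2, Mrpl34 of -0.054 ± 0.085 and -0.070 ± 0.085, and Mrpl28 of -0.020 ± 0.065 and 0.022 ± 0.064 (SE). Of the genes with the lowest levels, Mrpl23 had 0.040 ± 0.14 and 0.064 ± 0.14, Mrpl48 -0.11 ± 0.097 and 0.13 ± 0.094, and Mrpl57 -0.035 ± 0.13 and -0.28 ± 0.14. The edgeR adjusted p of these 7 genes was 0.201 or more with both siRNAs.

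By role, no class of the ribosome had more than 2 genes called. Of all genes, 4.67% were called with siRNA 1 and 9.72% with siRNA 2, and 2.71% and 6.17% were called higher. Of the 50 large subunit genes tested, 0 passed with siRNA 1 by edgeR's quasi-likelihood test (2 had an unadjusted p under 0.05, both lower). A single one passed with siRNA 2 (2.0%), as lower. Of the 26 small subunit genes, 1 passed with siRNA 1 (3.85%) and 2 with siRNA 2 (7.69%), all higher and all with a bacterial counterpart. Those calls were 6.25% and 12.5% of the 16 small subunit genes with a counterpart, above the shares of all genes, and rest on 1 and 2 genes. The median log2 fold changes of the large subunit were -0.0178 and 0.0233 with siRNAs 1 and 2, and those of the small subunit 0.0021 and 0.0147. The 16 small subunit genes with a bacterial counterpart had the widest spread with siRNA 2 of the 4 classes, with quartiles of -0.14 and 0.15, and in 5 of the 16 (31.2%, against 19.4% of all genes) the libraries did not overlap with control (Mrps7 and Mrps17 higher, and Mrps12, Mrps28 and Mrps6 lower). The 10 small subunit genes without a counterpart had quartiles of -0.068 and 0.088, and 0 of them passed with either siRNA (0 at an unadjusted p under 0.05). The 18 genes with a divergent partner upstream had medians of -0.0172 and 0.0090. The other 59 tested, which include those whose 5' end overlaps that of a gene on the opposite strand, had medians of -0.0086 and 0.0209. Leaving out the genes with more than 10% of their words shared with other genes left 68, with medians of -0.0141 and 0.0213 and the same numbers called, 1 and 3.

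Comparing the siRNAs with each other uses no control library. There 2 of the 77 genes passed the test (2.6%), Mrpl51 and Mrps2, both higher with siRNA 2, while 7.44% of all genes were called, 4.49% higher and 2.96% lower with siRNA 2. The median difference was 0.0196 (all genes 0.0018), in a range from -0.33 (Mrps36) to 0.32 (Mrps18c, adjusted p = 0.155), and for 65 of the 77 the interval lay within 0.32 of 0. In 9 genes (11.7%) the libraries of the siRNAs did not overlap, against 11.8% of all genes. Mrpl51, a large subunit protein without a bacterial counterpart, was at 51.7, 52.7 and 56.0 CPM in control, 51.8, 48.6, 44.9 and 48.7 CPM with siRNA 1, and 57.0, 61.4, 51.8 and 58.5 CPM with siRNA 2. The siRNA 1 libraries reached up to the lowest control and siRNA 2 libraries, and siRNA 2 replicate 3 lay among the control libraries. The siRNAs differed by 0.24 ± 0.063 on the log2 scale (SE; edgeR adjusted p = 0.0120), while neither differed from control past the test (-0.14 ± 0.069, adjusted p = 0.286, and 0.10 ± 0.067, adjusted p = 0.381). Without siRNA 2 replicate 2 the adjusted p was 0.0589. Mrps2, the small subunit counterpart of bacterial S2, was at 77.3, 75.6 and 82.4 CPM in control, 79.7, 72.8, 74.5 and 78.2 CPM with siRNA 1, and 94.9, 89.4, 80.9 and 80.3 CPM with siRNA 2. Each siRNA 2 library was above each siRNA 1 library, with control replicate 3 among those of siRNA 2. The difference was 0.18 ± 0.057 (SE; edgeR adjusted p = 0.0448), and it missed the threshold with TMM factors (0.0559), with DESeq2 (0.108) and without any one of siRNA 1 replicates 2, 3 and 4 and siRNA 2 replicates 1 and 2 (0.0639 to 0.221). It also missed it with the filter of 0.5 CPM in 3 libraries (0.0509), with no filter (0.0503), with only the 2 groups compared (0.0549) and with library sizes without Gm26917 (0.0556).

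The mean level of the mitochondrial ribosomal protein mRNAs varied most within the siRNA 2 group. The mean log2 CPM of the 77 genes was 5.17, 5.16 and 5.13 in the control libraries, 5.10, 5.13, 5.17 and 5.14 in those of siRNA 1, and 5.19, 5.22, 5.08 and 5.14 in those of siRNA 2. The groups overlapped, with means of 5.15 ± 0.022 (SD, n = 3), 5.14 ± 0.027 (n = 4) and 5.16 ± 0.062 (n = 4), and the 2 extremes of all 11 libraries were siRNA 2 replicates 2 and 3. Replicate 3 was the lowest of the 4 siRNA 2 libraries for 42 of the 77 genes, with a median deviation from the group mean of -0.068 on the log2 scale (0.0085 over all genes tested). Replicate 2 was the highest for 35 of the 77, with a median deviation of 0.068 (0.0059 over all genes). The gene Gm26917 took 4.865% of the gene reads in replicate 2 and 5.69% in replicate 3, where the 11 libraries ran from 4.865% to 6.338%. Reads outside any counted feature numbered 6151216 in replicate 2 and 6715249 in replicate 3. The part of library make-up in this spread was not tested. Without siRNA 2 replicate 3, 5 genes in place of 3 passed the test against control, and 5 in place of 2 against siRNA 1.

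**Figure D4:**
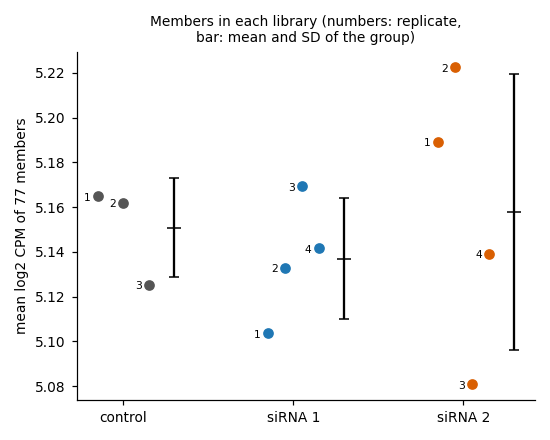
Mean log2 CPM of the 77 tested mitochondrial ribosomal protein genes in each library (points, with the replicate number), with the mean and SD of each group. The axis does not start at 0. The groups overlap, and siRNA 2 replicates 2 (5.22) and 3 (5.08) are the highest and the lowest of the 11 libraries.

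Other genes of mitochondrial translation were taken from lists written from general knowledge. The 5 mitoribosomal proteins with other symbols (Dap3, Chchd1, Aurkaip1, Ptcd3 and Gadd45gip1) had 0 calls with either siRNA by edgeR's quasi-likelihood test, with 1 gene at an unadjusted p under 0.05 in each. That gene was Dap3, a GTP-binding protein of the small subunit. It was at 76.8, 71.9 and 74.0 CPM in control, 79.1, 82.5, 80.7 and 84.2 CPM with siRNA 1, and 81.1, 86.8, 82.9 and 81.4 CPM with siRNA 2. All 8 CMTR1 siRNA libraries were above the control libraries, with log2 fold changes of 0.14 ± 0.057 (SE; edgeR adjusted p = 0.184) and 0.16 ± 0.057 (adjusted p = 0.0604). Of 26 assembly and ribosomal RNA modification factors, siRNA 1 left 0 called by edgeR (2 had an unadjusted p under 0.05). Only 1 was called with siRNA 2 (3.85%, against 9.72% of all genes). This was Noa1, a GTPase of small subunit assembly, which rose from 41.0 ± 2.72 CPM (SD, n = 3) to 50.5 ± 1.99 (n = 4), a log2 fold change of 0.30 ± 0.074 (SE; edgeR adjusted p = 0.00691). With siRNA 1 it stood at 41.6 ± 4.59 CPM, and the siRNAs differed by 0.28 ± 0.069 (adjusted p = 0.00835). Of 15 translation factors 0 passed with either siRNA (1 at an unadjusted p under 0.05 in each).

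The 17 mitochondrial aminoacyl-tRNA synthetases, which charge the tRNAs of the organelle, had 1 call with siRNA 1 (5.88%, against 4.67% of all genes) and 2 with siRNA 2 (11.8%, against 9.72%). Ears2, the glutamyl enzyme, rose with siRNA 1 from 24.5 ± 0.923 CPM (SD, n = 3) to 32.8 ± 1.99 (n = 4), a log2 fold change of 0.42 ± 0.086 (SE; edgeR adjusted p = 0.00131). With siRNA 2 it was 28.3 ± 2.73 CPM (0.21 ± 0.087, adjusted p = 0.120), and the difference between the siRNAs did not pass the test (-0.21, adjusted p = 0.0902). Mars2, the methionyl enzyme, rose with siRNA 2 from 27.4 ± 2.39 to 34.9 ± 1.68 CPM (0.35 ± 0.082, adjusted p = 0.00401), and with siRNA 1 it was 30.7 ± 2.34 CPM (0.16 ± 0.084, adjusted p = 0.326). Iars2, the isoleucyl enzyme, fell with siRNA 2 from 79.0 ± 2.56 to 64.2 ± 1.29 CPM (-0.30 ± 0.058, adjusted p = 0.000508). With siRNA 1 it was 74.5 ± 3.28 CPM (-0.084, adjusted p = 0.499), and the siRNAs differed by -0.21 ± 0.055 (adjusted p = 0.0107).

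**Figure D5:**
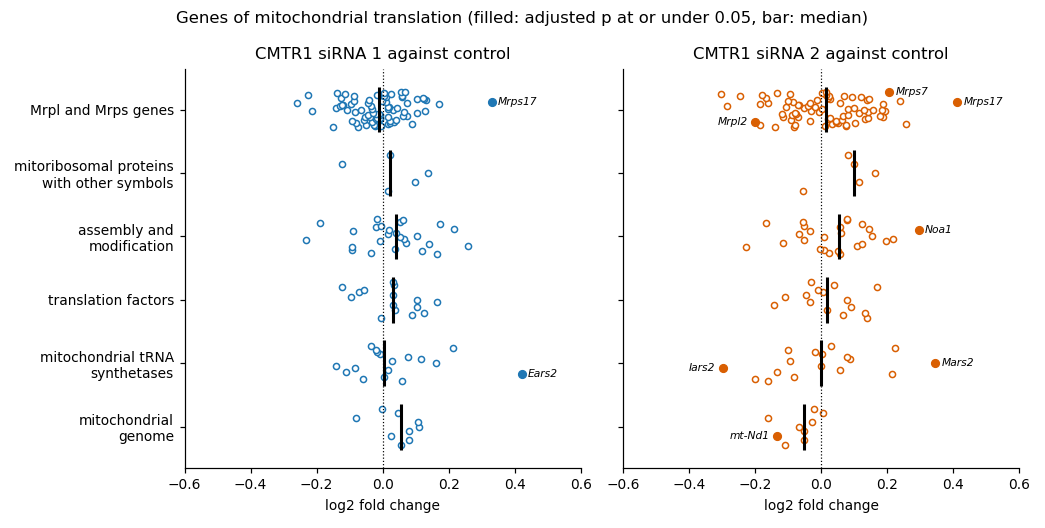
Log2 fold change against control with siRNA 1 (left) and siRNA 2 (right) for the 77 tested mitochondrial ribosomal protein genes and for the tested genes of 5 lists of mitochondrial translation. Filled points passed the test at an adjusted p of 0.05 and are named, and bars are medians, from -0.0515 to 0.10 over the lists with siRNA 2.

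The mitochondrial genome supplies the RNAs that the ribosome is built on and translates. Of its 2 ribosomal RNAs and 13 mRNAs, 9 passed the filter, and mt-Nd3, mt-Nd4l, mt-Co2, mt-Co3, mt-Atp6 and mt-Atp8 did not. Each of those that failed was at or under 0.396 CPM in every library, while mt-Co1 stood at 3720 CPM in control. Whether their reads were set aside in mapping or counting was not tested, and such counts do not describe their transcription. The ribosomal RNAs, which the library kit depletes, were at 6110 and 9340 CPM in control and had log2 fold changes between -0.021 and 0.047 with either siRNA. With siRNA 1, 0 of the 9 were called by edgeR's quasi-likelihood test (2 at an unadjusted p under 0.05, both higher), and the median log2 fold change was 0.055. With siRNA 2, 1 of the 9 was called (11.1%, against 9.72% of all genes), mt-Nd1, which encodes a subunit of complex I and fell from 2310 ± 38.6 CPM (SD, n = 3) to 2110 ± 167 (n = 4), a log2 fold change of -0.13 ± 0.044 (SE; edgeR adjusted p = 0.0447). Its siRNA 2 libraries, at 2160, 1910, 2310 and 2050 CPM, overlapped with the control libraries at 2360, 2280 and 2300 CPM. Between the siRNAs, 5 of the 9 were called (55.6%), all lower with siRNA 2, against 2.96% of all genes called lower: mt-Nd1, mt-Nd4, mt-Nd5, mt-Co1 and mt-Cytb, with differences from -0.18 (mt-Nd4) to -0.13 (mt-Cytb). In siRNA 2 replicate 2, where the nuclear-encoded ribosomal protein mRNAs were at their highest, 4 of these 5 mRNAs were at the lowest value of the group (all but mt-Nd4), and in replicate 3 all 5 were at the highest. The 5 thus varied together between libraries, and their calls are not independent of each other. Libraries of the siRNAs did not overlap for mt-Nd1 and mt-Co1 (2 of the 9, 22.2%, against 11.8% of all genes). They overlapped for mt-Nd4, mt-Nd5 and mt-Cytb.

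Cytosolic ribosomal protein mRNAs serve as the nearest set for comparison. Of 91 such genes 84 were tested, and 81 were below 0 with siRNA 1 (96.4%, against 43.2% of all genes) and 80 with siRNA 2 (95.2%, against 42.9%), with medians of -0.068 and -0.085, against 44 and 34 of 77 and medians of -0.0115 and 0.0149 for the mitochondrial ones. Among the cytosolic genes, 4 passed the test with siRNA 1 (4.76%) and 20 with siRNA 2 (23.8%), all lower, where 1.97% and 3.55% of all genes were called lower, whereas the mitochondrial set held 0 lower calls with siRNA 1 by edgeR's quasi-likelihood test (3 lower had an unadjusted p under 0.05) and 1 lower call with siRNA 2. These counts hold for scaling by total gene reads. With TMM factors 53 of the 77 mitochondrial genes were below 0 with siRNA 1, and the cytosolic genes were not counted under that scaling. The sets differ in depth, with a median SE of 0.044 for the cytosolic and 0.076 for the mitochondrial genes with siRNA 1, and the difference between the sets was not tested.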

How the data were processed

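The deposited values are counts: for each of 11 libraries the authors gave a whole number of reads for each Ensembl gene. Per the study's methods, total RNA was depleted of ribosomal RNA and made into directional libraries, and the reads passed through Cutadapt (trimming), STAR (alignment to GRCm38), Picard (removal of PCR duplicates) and featureCounts (counting; versions and strand setting not given in the sources used here). Removal of duplicates lowers the counts of abundant mRNAs more than those of scarce ones, and reads in overlapping or near-identical genes are set aside. Summary lines that name no gene, at the end of 10 of the 11 files, were left out. They are in the style of HTSeq, not of the featureCounts that the methods name, so the counting tool is not settled here.

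Symbols, exons and lengths came from the Ensembl annotation of GRCm38 (54809 of 54838 identifiers matched). Genes with more than 1 CPM in at least 4 libraries (16073) were tested with edgeR 4.0.16 (R 4.3.3), glmQLFit and glmQLFTest on 1 model of the 3 groups scaled by total counts, with Benjamini-Hochberg adjustment over all of them and a threshold of 0.05. Intervals are 1.96 SE. The fit was tested on simulated data. Tables and plots were made with Python 3.11.15, pandas 2.3.3 and matplotlib 3.10.9. CPM values are counts scaled to the total of gene reads in a library. Alternatives were TMM factors, DESeq2 1.42.0, exactTest, other filters, fits of the groups compared alone, library sizes without Gm26917, a replicate block and each library left out. A list of genes that share at most 10% of their 75-base words was added after the data were seen.

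Named genes were those called, the highest and lowest fold change with each siRNA, the 5 highest and 3 lowest control levels per kb, any that failed the filter, and called genes of the pathway lists. The members, lists and this rule were chosen with earlier results of these data known. The labels do not say whether the replicates of a group came from separate cultures. The study's methods name 3 biological replicates for PCR or sequencing work, and do not describe how they were kept separate. Each CMTR1 siRNA group held more libraries than that, and how these relate to the stated replicates is not given. The p-values measure the spread between these libraries, and how much of it is technical was not tested.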

Additional observations from a re-analysis of the deposited data

Results flagged for a closer look

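In 12 of the 154 CMTR1 siRNA groups screened (77 mitochondrial ribosomal protein genes with each siRNA, 7.79%), 1 library stood apart from the other 3 by Dixon's test, which flags about 1 in 20 groups by chance. With siRNA 1 the library that stood apart was the highest for Mrpl46 (24.7 CPM), Mrpl48 (22.3), Mrpl49 (60.8) and Mrps16 (28.5), and the lowest for Mrpl21 (38.1), Mrps14 (20.8) and Mrps15 (32.9). With siRNA 2 it was the highest for Mrpl47 (37.0) and Mrps22 (35.8) and the lowest for Mrpl32 (17.0), Mrpl52 (12.4) and Mrps27 (65.1). Of the 24 groups of Cmtr1 and 11 pathway genes, 1 stood out in the same way, Mars2 with siRNA 1 (lowest library 27.3 CPM). The control group, with 3 libraries, was not screened.

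The siRNAs differed from each other past the test in these genes. The log2 difference, siRNA 2 minus siRNA 1, was 0.24 for Mrpl51 (edgeR adjusted p = 0.0120) and 0.18 for Mrps2 (edgeR adjusted p = 0.0448), and neither gene differed from control past the test with either siRNA. In the pathway lists it was 0.28 for Noa1, -0.22 for Aars2 (the alanyl-tRNA synthetase), -0.21 for Iars2, -0.16 for mt-Nd1, -0.18 for mt-Nd4, -0.14 for mt-Nd5, -0.16 for mt-Co1 and -0.13 for mt-Cytb. No explanation was tested.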

How the results depend on the processing

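Of the genes of the mitochondrial ribosome, 1 was called with siRNA 1 in the main setting, 3 with TMM factors and 2 each with exactTest, with no filter, with only the 2 groups compared and with the replicate block. Leaving out single libraries gave 0 to 2 (0 without control replicate 2 and without siRNA 1 replicate 2, with the adjusted p of Mrps17 at 0.0512 and 0.0541). With siRNA 2, 3 were called, 1 with no filter, 2 with TMM factors, DESeq2 or the replicate block, and 1 to 5 with single libraries left out (1 without siRNA 2 replicate 1 or any control library, 5 without siRNA 2 replicate 3). Between the siRNAs 2 were called, 1 with TMM factors, DESeq2, the filter of 0.5 CPM in 3 libraries, no filter, only the 2 groups compared or library sizes without Gm26917, 3 with the replicate block, and 0 to 5 with single libraries left out (0 without siRNA 2 replicate 2, 1 without siRNA 1 replicate 2, 5 without siRNA 2 replicate 3). Under the block the log2 fold change of Mrpl2 with siRNA 2 was -0.17 (adjusted p = 0.0932). Same-numbered libraries did not deviate together (mean correlation 0.00872 over 10 pairs, -0.00291 over 30 others) and 5 of 11 correlated best with their own number, so the numbers were not taken to pair them. With siRNA 1, Mrps16 passed with TMM factors (adjusted p = 0.0494).

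TMM factors ran from 0.986 to 1.012. With them 53 of 77 genes were below 0 with siRNA 1 (44 in the main setting) and 41 with siRNA 2 (34), and with DESeq2 55 and 44. The median with siRNA 1 was -0.0317 with TMM factors and -0.0359 with DESeq2, and with siRNA 2 it was -0.0100 and -0.0142, each within the spread of the mean level between libraries (SD 0.043). Over all genes tested the median with siRNA 1 was 0.0042 with TMM factors and 0.0005 with DESeq2. With siRNA 2 the median over all genes was 0.004 and 0.0. No called value changed sign in any alternative run. The cause of these shifts was not tested. At 31 to 1031 reads per gene and library, the median SE of a log2 fold change was 0.076 with siRNA 1 and 0.077 with siRNA 2.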
